A study of Homo sapiens with 24 samples.

Results

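In 672 of 17934 genes tested, MDA-MB-175 and HCC1500 breast cancer cells responded to high glucose in opposite directions. Both are established estrogen receptor-positive (ER+) human breast carcinoma lines. For 48 hours they were kept at a glucose concentration of 5 mM (low, the control) or 25 mM (high, a model of hyperglycemia), after conditioning in low glucose. The study's methods describe such cultures as serum-free, and no osmolarity control is labelled among these samples, so glucose and osmolarity cannot be told apart. There were 4 replicates of each line and condition, RNA was sequenced on an Illumina HiSeq, and the labels do not say whether replicates were separate cultures, so that p-values measure the spread between these samples, which may be technical. Another ER+ line in the series, ZR-75-30, was treated alike and is used below as a reading that did not choose the genes. Each line stands for 1 tumor, so the line and everything that differs between the lines cannot be told apart.

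The members were found on the log2(normalised read count + 1) scale. For each gene the change from low to high glucose was fitted in each line, and the change in HCC1500 was subtracted from the change in MDA-MB-175. A gene was called opposite when both changes and their difference had an adjusted p under 0.05 (limma, Benjamini-Hochberg over all genes tested) and the changes had opposite signs. High glucose replicate 3 of HCC1500 was not fitted, which left 15 samples, and every mean ± SD of HCC1500 at high glucose has n = 3 while the others have n = 4. In that library 23.82% of genes were over 1 log2 unit away from its fellow replicates, against 0.38% to 1.19% in the other 15. Across 13252 of these genes the Spearman correlation of the difference with exon length was 0.18 with that library and -0.05 without it. Its value is given beside the main genes below as the left-out replicate.

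Extra glucose enters a cell through transporters of the SLC2A family, is phosphorylated by hexokinases and then feeds glycolysis, the pentose phosphate pathway, serine synthesis and, through citrate, the synthesis of fatty acids and cholesterol. Sugar phosphates activate the paired transcription factors MondoA or ChREBP with MLX, which bind E-box elements and induce TXNIP and ARRDC4, arrestin-like proteins that restrain glucose uptake. Other programmes that nutrient supply is known to touch include the ATF4 stress response, hypoxia-inducible genes, immediate early genes, and growth factor signaling through IRS1 and the IGF binding proteins. In luminal breast cells the estrogen receptor, encoded by ESR1, sits beside these as the main lineage and growth regulator.

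TXNIP and ARRDC4 moved in the same direction in both lines. TXNIP in MDA-MB-175 read 2005, 1928, 1880 and 1941 in low and 2574, 2518, 2477 and 2591 in high glucose. In HCC1500 it read 2475, 2615, 2608 and 2525 in low and 5084, 5080 and 5081 in high glucose, and 5510 in the left-out replicate. The groups did not overlap in either line, and the rise was 0.39 ± 0.03 (log2, SE) in MDA-MB-175 and 0.99 ± 0.03 in HCC1500. The difference of -0.60 ± 0.04 had an adjusted p of 4.8e-09, so TXNIP rose in both lines, and more in HCC1500. ARRDC4 rose by 0.41 ± 0.10 (adjusted p = 0.00472) and 0.38 ± 0.11 (adjusted p = 0.00747), and the difference of 0.04 ± 0.15 was not called (adjusted p = 0.883), with a sign that turned under 8 other settings. In MDA-MB-175 its low glucose samples ran from 113 to 133 and its high glucose samples from 141 to 170.2. In HCC1500 they ran from 50.8 to 67.6 and from 64.9 to 83.6, which overlap. The ARRDC4 promoter is shown here because it carries an E-box, the element read by MondoA and ChREBP. The stretch lies at chr15:97960463-97960528 (GRCh38.p14, plus strand, from RefSeq), 240 to 175 bases before the transcription start, and the capitals mark the E-box CACGTG.
ARRDC4: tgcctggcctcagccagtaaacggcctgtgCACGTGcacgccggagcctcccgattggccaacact

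Of the genes tested, the response differed between the lines in 6235 (34.8%), with the MDA-MB-175 change above that of HCC1500 in 4061 (22.6%) and below it in 2174 (12.1%). In MDA-MB-175 4903 genes changed (27.3%), 2269 upward (12.7%) and 2634 downward (14.7%). In HCC1500 8601 changed (48%), 3036 upward (16.9%) and 5565 downward (31%). These splits depended on the scaling, and after median-of-ratios rescaling 2642 rose and 2185 fell in MDA-MB-175, and 4263 rose and 4104 fell in HCC1500. With the length and GC trend removed 4608 rose and 4043 fell in HCC1500, and DESeq2 gave 4159 and 3829. Both lines were called in 3307 genes (18.4%), and in 1876 of these the difference was called as well (10.5%). The direction was shared in 2635 (14.7%) and opposite in 672 (3.75%), all of which were called for the difference. High glucose raised 457 of the opposite genes in MDA-MB-175 and lowered them in HCC1500 (2.55%), and did the reverse in 215 (1.2%).

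Most opposite changes were small. The median change of the 457 genes was 0.30 in MDA-MB-175 and -0.37 in HCC1500, and that of the 215 genes was -0.22 and 0.28. Changes of at least 0.5 log2 in each line, in opposite directions, were seen in 83 genes (0.463%), of which 67 rose in MDA-MB-175 (0.374%) and 16 rose in HCC1500 (0.0892%). Changes of at least 1 in each line were seen in 6 genes, NDRG1, CSNK2B, ADPRH and KCNK3 among them, and the group means of the last 3, named after their values were seen, were at most 26.0. CSNK2B moved furthest, by -1.39 and 1.73, but shares 2523 exon bases with other annotated genes. Low and high glucose samples did not overlap in MDA-MB-175 in 4539 genes (25.3%) and in HCC1500 in 9498 (53%). They were apart in both lines in opposite order in 665 genes (3.71%), 454 of which were higher at high glucose in MDA-MB-175 (2.53%) and 211 lower (1.18%). Of the 672 opposite genes, 507 were among these.

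**Figure D1:**
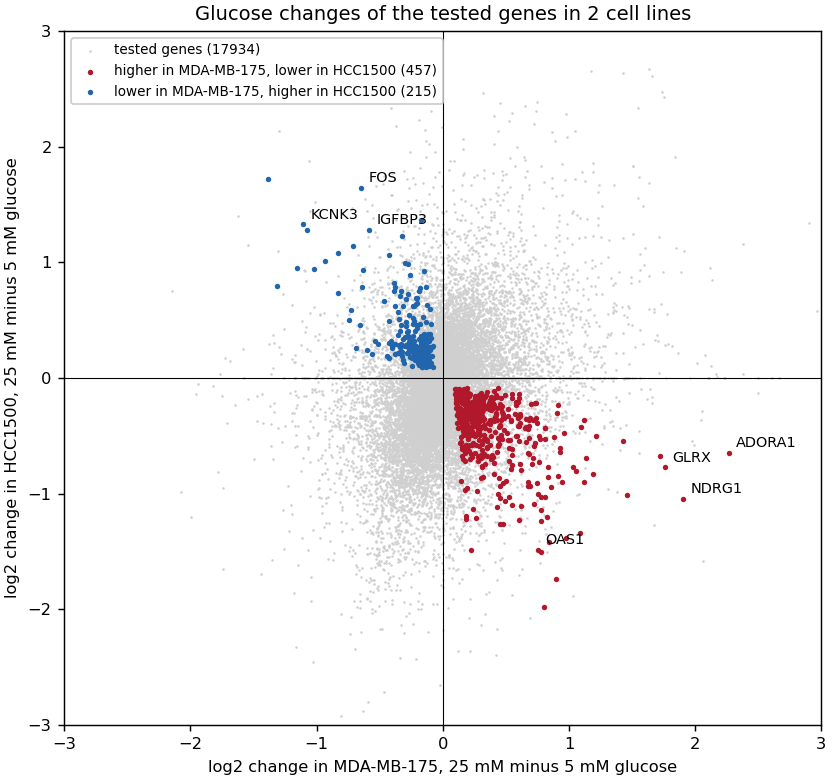
Log2 change from 5 to 25 mM glucose in MDA-MB-175 (x axis) against HCC1500 (y axis), 1 point per gene tested. Opposite-direction genes are coloured in the lower right (457 genes) and upper left (215 genes), and 15 genes lie beyond the axes.

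The scaling of the samples bears on genes with small changes. With the values as deposited the median change over all genes was -0.02 in MDA-MB-175 and -0.10 in HCC1500, so that the median difference was 0.10. After median-of-ratios rescaling it was 0.02, and after removal of a trend with exon length and GC content it was -0.03. The call of opposite directions held under all 4 rescalings tried in 383 of the 672 genes and in 56 of the 83. Depth moved with glucose in HCC1500, since its low glucose samples held 13190982 to 17998819 reads and its fitted high glucose samples 9423472 to 12140912. The part of depth in the results was not tested. Across the 15 samples depth ran from 9140024 to 17998819 reads, and 3 reads were worth 0.95 to 2.01, which is the value that a count of 0 allows. In the left-out replicate, 420 of the 672 genes lay beyond all 4 low glucose samples on the side of the other high glucose replicates, 269 of 457 and 151 of 215. In 445 of the 672 this replicate lay on that side of the low glucose mean, and in the rest it did not. When this replicate was fitted with the others, 158 genes were called opposite (0.879%), 155 of them among the 672. MDA-MB-175 changes called in that fit numbered 1614 against 4903, although its own samples were the same. A call lost with this replicate kept therefore does not by itself mean that the direction turned.

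**Figure D2:**
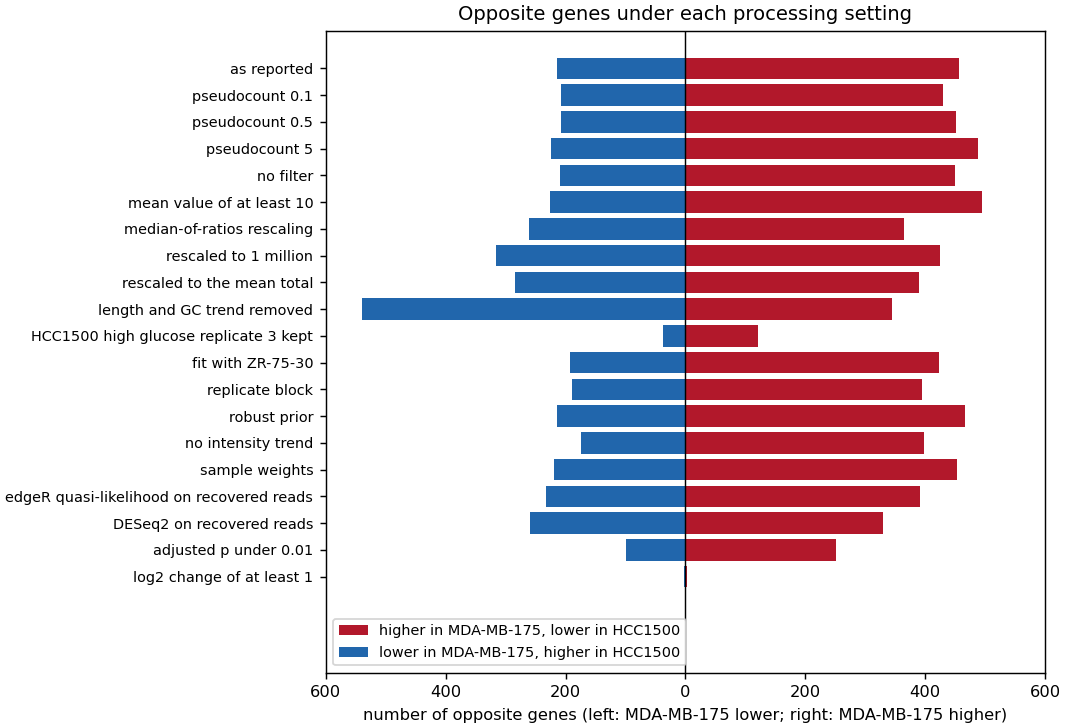
Number of opposite-direction genes under each setting, to the right those higher in MDA-MB-175 and to the left those higher in HCC1500. The count was 672 as reported, 158 with the left-out replicate kept, and 6 with a limit of 1 log2 unit. The count of 1849 at an adjusted p under 0.3 is not drawn.

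Among the genes that met the naming rule (no overlap in either line and a group mean of at least 10 in each), NDRG1 had the largest opposite response. It is a stress- and hypoxia-inducible gene that also responds to differentiation. In MDA-MB-175 it read 12.04, 14.7, 12.5 and 7.63 in low glucose and 54.9, 41.5, 39.4 and 47.8 in high glucose. In HCC1500 it read 735, 800.4, 776 and 758 in low and 385, 376 and 355 in high glucose, with 444 in the left-out replicate. For this and the other opposite genes named by the rule, lack of overlap and a called difference were conditions of being named. They are not separate support for these genes. The rise was 1.90 ± 0.14, the fall -1.04 ± 0.15 and the difference 2.95 ± 0.20 (adjusted p = 6.5e-09). Even after the opposite moves, HCC1500 held more NDRG1 than MDA-MB-175 in every sample.

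GLRX encodes glutaredoxin, which removes glutathione from protein thiols, and spans bases 95087023 to 95158430 of chromosome 5 (GRCh37, minus strand). It read 61.8, 54.3, 58.1 and 66.1 in low and 218, 194, 191 and 218 in high glucose in MDA-MB-175. HCC1500 had 120, 109, 121 and 113 in low and 70.2, 73.6 and 59.1 in high glucose. MDA-MB-175 thus held less GLRX than HCC1500 at low glucose and more at high glucose, with a difference of 2.53 ± 0.12 (adjusted p = 9.1e-11). The left-out HCC1500 replicate read 147, above all 4 low glucose samples, and with it the HCC1500 change was -0.49, the difference 2.25, and the gene was no longer called opposite.

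Lipid and matrix genes stood among the next. MGLL, the lipase that splits monoglycerides into fatty acid and glycerol, read 755, 732, 757 and 681 against 1280, 1232, 1244 and 1254 in MDA-MB-175. HCC1500 had 491, 503, 454 and 499.9 against 211, 198 and 207, with 229 in the left-out replicate. The difference was 2.02 ± 0.06 (adjusted p = 5.6e-13), with no overlap in either line. TIMP3, an inhibitor of matrix metalloproteinases bound to extracellular matrix, went up in MDA-MB-175 from 1638 ± 37.9 to 2710 ± 60.3 (SD) and down in HCC1500 from 181 ± 6.2 to 85.2 ± 12.2. Its difference was 1.81 ± 0.09 (adjusted p = 1.4e-10), and the left-out replicate read 101, below the low glucose range of 174 to 188.

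OAS1 and CEACAM1 followed the same pattern. OAS1, which makes the 2'-5'-linked oligoadenylates that activate RNase L, read 201, 213, 201 and 199 in low and 356, 335, 323 and 364 in high glucose in MDA-MB-175. HCC1500 had 70.3, 78.5, 75.5 and 82.7 against 24.8, 29.9 and 25.9, and 45.3 in the left-out replicate. The groups were apart in both lines, and the difference was 2.24 ± 0.10 (adjusted p = 5.8e-11). CEACAM1, a cell adhesion receptor of epithelia and immune cells, had 369, 394, 355 and 359 against 634, 649, 617 and 637 in MDA-MB-175. In HCC1500 it had 56.6, 57.8, 46.8 and 40.1 against 20.1, 20.9 and 25.4, with 20.8 in the left-out replicate. Its difference was 1.92 ± 0.14 (adjusted p = 1.7e-08). The annotation gives CEACAM1 185 exon bases shared with a neighbouring transcript, CTB-50E14.6, and without a stated strand their reads cannot be told apart there.

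The naming rule took 6 other genes in this direction. KIF3C, a kinesin motor subunit, rose by 0.83 ± 0.09 and fell by 0.86 on the log2 scale, and SLC16A5, of the monocarboxylate transporter family, rose by 1.06 ± 0.12 and fell by 0.80. MARVELD1 rose by 0.94 ± 0.11 and fell by 0.90. These 3 kept their opposite call in 34 of 35 alternative settings. RASA4B, a Ras GTPase-activating protein, moved by 1.12 ± 0.09 and -0.90 ± 0.10, but RASA4 is a near-identical copy and its reads may be split between them. C10orf10, also called DEPP1, moved by 0.78 ± 0.15 and -1.03 ± 0.17, shares 695 exon bases with RASSF4, and in the left-out HCC1500 replicate read 16.3, above the low glucose range of 8.89 to 12.1. RNF224 moved by 0.85 ± 0.28 and -0.95 ± 0.30 at levels under 15, and kept its opposite call in 22 of 34 alternative settings. TNFAIP2, a TNF-induced gene named as a list member, rose by 0.81 ± 0.09 and fell by 0.53, with a difference of 1.34 ± 0.13 (adjusted p = 5.5e-07).

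In the other direction, FOS had the largest difference among the 12 genes named by the rule, and EGR1 moved with it. Both are immediate early genes, transcription factors that growth factor signals switch on within minutes through serum response factor. FOS (chromosome 14, bases 75745529 to 75748933, GRCh37, plus strand) read 811, 732, 744 and 684 in low and 472, 474, 465 and 479 in high glucose in MDA-MB-175. In HCC1500 it read 19, 24.1, 21.1 and 17.7 against 80.2, 57.2 and 61.9, and 86.1 in the left-out replicate. It fell by 0.65 and rose by 1.65 ± 0.10, a difference of -2.29 ± 0.14 (adjusted p = 2.0e-09). EGR1 read 862, 827, 867 and 787 against 531, 539, 552 and 519 in MDA-MB-175. HCC1500 had 8.74, 10.2, 11.5 and 11.6 against 20.7, 15.4 and 20.8, and 15.6 in the left-out replicate. Neither gene's groups overlapped in either line, and the EGR1 difference was -1.43 ± 0.14 (adjusted p = 3.7e-07). Both genes remained far higher in MDA-MB-175 than in HCC1500 in all samples. The EGR1 promoter is shown because it carries 2 CArG boxes, the element bound by serum response factor. The stretch is at chr5:138465344-138465435 (GRCh38.p14, plus strand, from RefSeq), 135 to 44 bases before the start, with the CArG boxes in capitals.
EGR1: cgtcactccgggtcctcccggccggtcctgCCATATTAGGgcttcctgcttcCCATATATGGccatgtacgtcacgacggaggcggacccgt

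IGFBP3, which binds insulin-like growth factors outside the cell, read 141, 139, 130.4 and 131 in low and 98.2, 90.3, 67.5 and 109 in high glucose in MDA-MB-175. HCC1500 had 17.1, 17.5, 17.6 and 17.2 against 43.7, 41.3 and 46.2, and 65.3 in the left-out replicate. The groups were apart in both lines and the difference was -1.86 ± 0.17 (adjusted p = 1.7e-07). ATP2A3, a calcium pump of the endoplasmic reticulum, fell by 0.64 and rose by 0.94 ± 0.11, and PBX3, a homeobox transcription factor, fell by 0.72 and rose by 0.59 ± 0.07. HIPK2, a nuclear kinase that acts on p53, went from 1209, 1334, 1290 and 1295 to 863, 1036, 1065 and 989 in MDA-MB-175. In HCC1500 it went from 705, 652, 667 and 728 to 1034, 1075 and 1069. The left-out replicate read 310, below every other HCC1500 sample, and with it the HIPK2 difference of -0.56 was not called (adjusted p = 0.418).

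Of the 6 further genes named in this direction, CA8, a carbonic anhydrase-like protein without enzyme activity, fell by 0.46 and rose by 0.67 ± 0.05. The secreted protein NELL2 fell by 0.66 and rose by 0.46 ± 0.10, and RGS16, which turns off G protein signals, fell by 0.43 and rose by 1.06 ± 0.10. OSR2, a zinc finger transcription factor, fell by 0.39 and rose by 0.82 ± 0.08. FOXJ1, the regulator of motile cilia, fell by 0.38 (adjusted p = 0.0256) and rose by 0.78 ± 0.13. ABCA11P, a pseudogene, fell by 0.74 and rose by 0.50 ± 0.18 (adjusted p = 0.0303), and shares 1647 exon bases with ZNF721. It kept its opposite call in 28 of 35 alternative settings, losing it under the replicate block and without HCC1500 low glucose replicate 2, low glucose replicate 3 or high glucose replicate 2. FOXJ1 kept its call in 27 of 35, losing it without MDA-MB-175 low glucose replicate 1 or 3 or high glucose replicate 2 or 3. RGS16, OSR2 and FOXJ1 were no longer called opposite with the left-out replicate kept, while their differences of -1.71, -1.41 and -1.42 were still called.

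**Figure D3:**
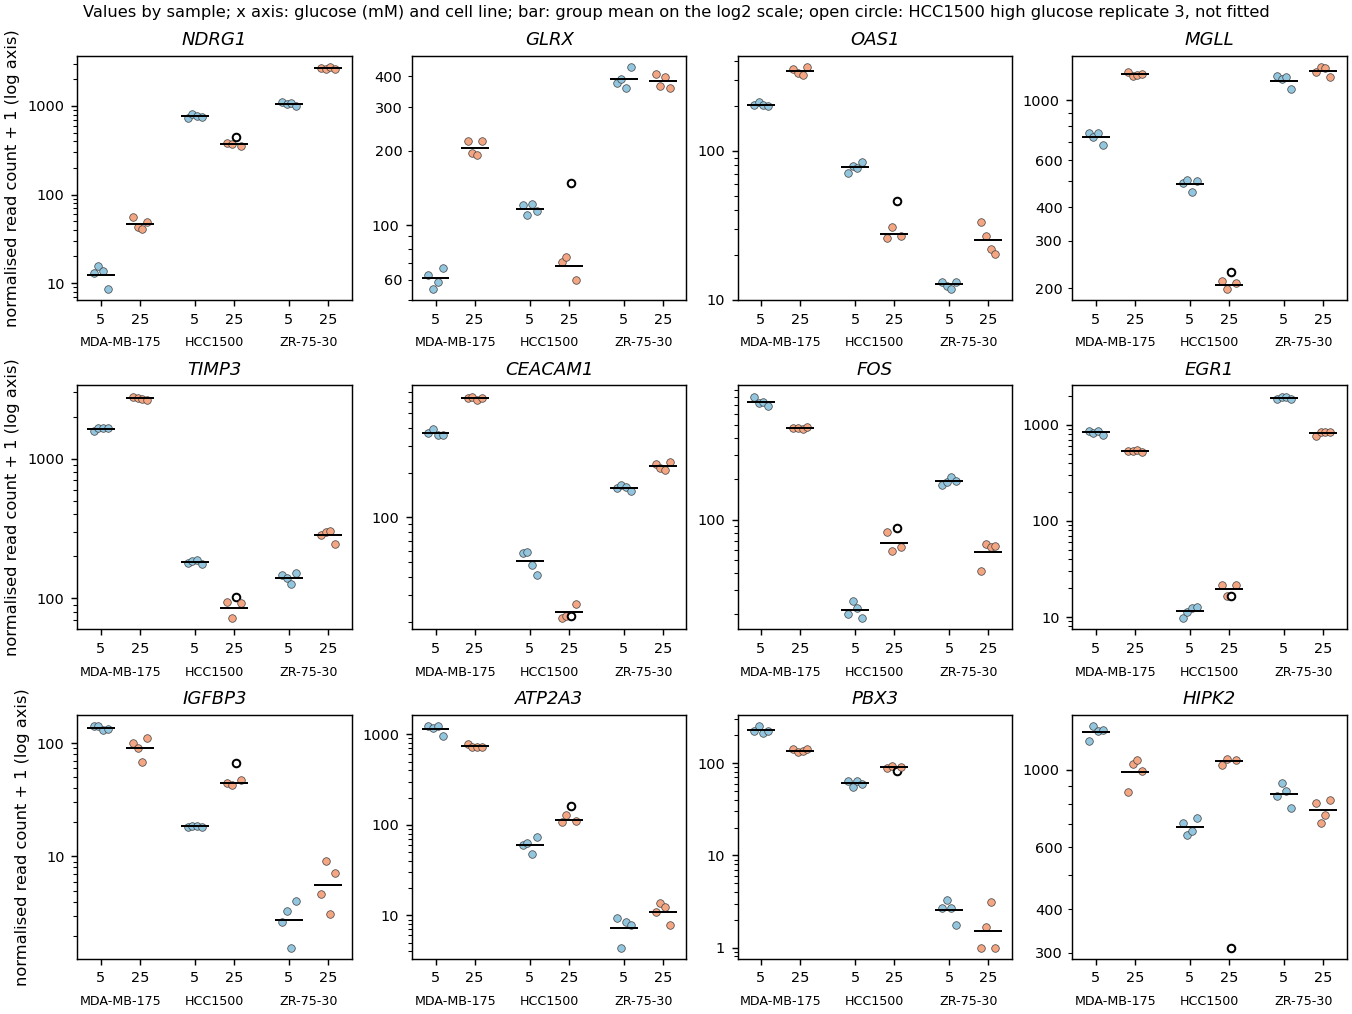
Normalised read count + 1 (log axis) of 12 genes in each sample at 5 and 25 mM glucose, by cell line. Bars are group means on the log2 scale, and the open circle is high glucose replicate 3 of HCC1500, which was not fitted. MDA-MB-175 and HCC1500 move in opposite directions in every panel, and the open circle lies on the other side of the low glucose samples for GLRX and HIPK2.

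Of 21 hypoxia-inducible genes, 10 had a difference above 0 and 3 below it (61.9%, against 34.8% of all genes), and 7 were opposite (33.3%, against 3.75%), all 7 higher in MDA-MB-175 at high glucose. The list's median change was 0.19 in MDA-MB-175 and -0.08 in HCC1500. Its median difference of 0.09 was close to the 0.10 of all genes and turned to -0.01 after median-of-ratios rescaling. Besides NDRG1, the clock-linked repressor BHLHE40 rose by 0.75 and fell by 0.39, DDIT4, an inhibitor of mTORC1, rose by 0.32 and fell by 0.85, and the carbonic anhydrase CA12 rose by 0.20 and fell by 0.52. These 4 held their opposite call under all 4 rescalings. ERO1L, a disulfide-forming oxidase, P4HA2, a collagen prolyl hydroxylase, and SLC2A1, the main basal glucose transporter, held it under 1, 2 and 3 of them. With the left-out replicate kept, 3 of the 21 were opposite (14.3%, against 0.879% of all genes in that fit).

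Among 23 glycolysis and lactate genes, 10 had a difference above 0 and 4 below (60.9%, against 34.8% of all genes). In this list 4 were opposite (17.4%, against 3.75%). Its median difference of 0.12 was close to the 0.10 of all genes and was 0.03 after median-of-ratios rescaling. HK2, the inducible hexokinase, went up in MDA-MB-175 from 1287 to 2067 and down in HCC1500 from 752 to 565, with a difference of 1.1 (adjusted p = 1.2e-11). PKM, pyruvate kinase, rose by 0.46 and fell by 0.17, and SLC2A1 rose by 0.36 and fell by 0.25. PGAM1, phosphoglycerate mutase, fell by 0.20 and rose by 0.13. For PKM the left-out replicate read 7501, above the HCC1500 low glucose mean of 4795. With it kept PKM, SLC2A1 and PGAM1 lost the call. In that fit 1 of the 23 was opposite (4.35%, against 0.879% of all genes).

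RNA of most listed cholesterol genes fell in HCC1500, with mixed changes in MDA-MB-175. Of 25 cholesterol synthesis and uptake genes, 20 fell and 2 rose in HCC1500, while 7 fell and 6 rose in MDA-MB-175. Of all genes, 31% fell and 16.9% rose in HCC1500, and 14.7% fell and 12.7% rose in MDA-MB-175. The difference was above 0 in 18 and below it in 1 (76%, against 34.8% of all genes), with a median of 0.39 against 0.10. MSMO1, a sterol methyl oxidase, rose by 0.21 and fell by 0.46. FDFT1, squalene synthase, rose by 0.29 and fell by 0.24, and IDI1, isopentenyl diphosphate isomerase, rose by 0.13 and fell by 0.34. INSIG1, the sterol sensor partner that holds SREBP back, was the reverse, falling by 0.13 and rising by 0.16. In all 6 of 25 were opposite (24%, against 3.75% of all genes). With the left-out replicate kept 1 was opposite (4%, against 0.879% of all genes in that fit).

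Of 23 fatty acid synthesis and lipid storage genes, 13 had a difference above 0 and 3 below (69.6%, against 34.8% of all genes). The median was 0.54, and 5 were opposite (21.7%, against 3.75%). SCD, which makes monounsaturated fatty acids, went up in MDA-MB-175 from 32740 to 40650 and down in HCC1500 from 12410 to 7283, with a difference of 1.08 (adjusted p = 1.1e-12), and the left-out replicate at 5445 lay on the same side. LPIN1, a phosphatidate phosphatase, rose by 0.72 and fell by 0.37. CPT1A, which carries fatty acids into mitochondria for oxidation, fell by 0.34 and rose by 0.22, and DGAT2, which makes triglyceride, fell by 0.40 and rose by 0.26. With the left-out replicate kept 3 of the 5 were opposite, all higher in MDA-MB-175. They made 13% of the list, against 0.879% of all genes in that fit.

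Stress response lists were divided. Of 29 ATF4 targets, 22 rose in MDA-MB-175 and 16 in HCC1500, and 6 were opposite (20.7%). Of all genes, 12.7% rose in MDA-MB-175, 16.9% rose in HCC1500 and 3.75% were opposite. The serine synthesis enzymes PHGDH and PSPH rose by 0.16 and 0.23 in MDA-MB-175 and fell by 0.35 and 0.29 in HCC1500, and PCK2, mitochondrial phosphoenolpyruvate carboxykinase, rose by 0.33 and fell by 0.66. ATF5 fell by 0.36 and rose by 0.22. CBS was called opposite, but in HCC1500 its means were 0.377 and 0, below the worth of 3 reads. None of the 6 was opposite with the left-out replicate kept. Of 23 NRF2 antioxidant targets, 16 rose in MDA-MB-175 and 12 in HCC1500, and 3 were opposite (13%), ABCC3 and ME1 among them, but neither ABCC3 nor ME1 with the left-out replicate kept. Of 18 heat shock genes 5 were opposite (27.8%), HSPB1, DNAJB1 and BAG3 higher and HSPA4 and HSP90AA1 lower in MDA-MB-175, with changes from 0.08 to 0.47 in that line, against 3.75% of all genes. After median-of-ratios rescaling 1 of the 18 was opposite (5.56%, against 3.49% of all genes), and with the left-out replicate kept all 5 lost the call.

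Interferon-stimulated genes fell in HCC1500 and did not move one way in MDA-MB-175. Of 32 listed, 21 fell in HCC1500 (median -0.56), while 6 rose and 6 fell in MDA-MB-175 (median -0.06). Of all genes, 31% fell in HCC1500, and 12.7% rose and 14.7% fell in MDA-MB-175. The difference was above 0 in all 18 genes in which it was called (56.2%, against 34.8% of all genes), with a median of 0.61. OAS1, IFIH1 and PARP14 were opposite (9.38%, against 3.75% of all genes). All 3 remained so with the left-out replicate kept (against 0.879% of all genes in that fit). IFIH1, a sensor of viral double-stranded RNA, rose from 42.5 to 54.5 and fell from 68.8 to 47.3. PARP14, an ADP-ribosyltransferase, rose from 154 to 224 and fell from 132 to 101. Promoters of IFIH1, PARP14 and CEACAM1 are shown because the core of the interferon-stimulated response element, GAAANNGAA, lies within 250 bases before the start. It was found on either strand in 14 of 24 interferon-list promoters (58.3%), against 5.41% of 10970 promoters of genes tested and 7.06% of all 27305. The same window of OAS1 held no match of these letters. The stretches are from RefSeq (GRCh38.p14), IFIH1 at chr2:162318685-162318735 (minus strand), PARP14 at chr3:122680780-122680838 (plus) and CEACAM1 at chr19:42528559-42528627 (minus), with the core in capitals.
IFIH1: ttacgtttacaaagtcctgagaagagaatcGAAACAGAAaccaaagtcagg
PARP14: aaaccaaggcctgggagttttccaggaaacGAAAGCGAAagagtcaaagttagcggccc
CEACAM1: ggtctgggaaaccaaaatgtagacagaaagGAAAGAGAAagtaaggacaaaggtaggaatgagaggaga

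Of 21 AP-1 and immediate early genes 5 were opposite (23.8%, against 3.75% of all genes). Besides FOS and EGR1, CYR61, a secreted matrix protein, fell by 0.22 and rose by 0.64. JUN, the partner of FOS in AP-1, went the other way, rising by 0.32 and falling by 0.19, as did DUSP5, a nuclear ERK phosphatase, which rose by 0.96 and fell by 0.48. FOS and EGR1 were the 2 that remained opposite with the left-out replicate kept. JUN held its call under 2 of 4 rescalings and the other 4 genes under all 4. In 23 TNF and NF-κB targets, 13 rose in MDA-MB-175 and 12 in HCC1500, and NFKB1 and TNFAIP2 were opposite (8.7%), in different directions. Of all genes, 12.7% rose in MDA-MB-175 and 16.9% in HCC1500.

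Luminal regulators were opposite in 4 of 20 genes (20%, against 3.75% of all genes), all lower in MDA-MB-175 and higher in HCC1500 at high glucose. ESR1 in MDA-MB-175 read 336, 338, 337 and 329.6 in low and 255, 257, 263 and 256 in high glucose. In HCC1500 it read 3180, 3133, 3179 and 3221 against 3837, 3962 and 3870. The groups were apart in both lines, and the changes were -0.38 and 0.29, with a difference of -0.67 (adjusted p = 8.8e-10). The left-out replicate, at 2796, lay below every low glucose sample of HCC1500, and with it ESR1 was not called opposite. TBX3, a T-box repressor, fell by 0.23 and rose by 0.49, and was the 1 of the 4 still opposite with that replicate. EHF and GRHL2, epithelial transcription factors, had changes of -0.25 and 0.28, and of -0.20 and 0.22. Of 25 estrogen-induced genes, 8 rose and 9 fell in MDA-MB-175, 9 rose and 11 fell in HCC1500, and 4 were opposite (16%). Of all genes, 12.7% rose and 14.7% fell in MDA-MB-175, and 16.9% rose and 31% fell in HCC1500. AREG, an EGF receptor ligand, went up in MDA-MB-175 from 70.1 to 153 and down in HCC1500 from 4278 to 3320. CCND1, cyclin D1, rose by 0.23 and fell by 0.27, and IGFBP4 fell by 0.28 and rose by 0.72. With the left-out replicate kept AREG and IGFBP4 lost the call, and CCND1 and CA12 kept it. The HCC1500 change was then -0.15 for AREG and 1.06 for IGFBP4. In the insulin and IGF list, IGFBP3, IGFBP4 and IRS1, the adaptor of the insulin and IGF1 receptors, were opposite (14.3% of 21), all lower in MDA-MB-175. IRS1 went from 472 to 399 and from 575 to 889, with 435 in the left-out replicate. With that replicate kept IGFBP3 was the 1 gene of the 21 still opposite (4.76%, against 0.879% of all genes in that fit).

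Ribosome biogenesis and p53 target genes rose in HCC1500 and differed from MDA-MB-175 in that direction. Of 35 MYC and ribosome biogenesis genes, 26 rose and 2 fell in HCC1500, and 4 rose and 7 fell in MDA-MB-175. The difference was below 0 in all 23 genes in which it was called (65.7%, median -0.33). Of all genes, 16.9% rose and 31% fell in HCC1500, and 12.7% rose and 14.7% fell in MDA-MB-175. Their difference was below 0 in 12.1% and above 0 in 22.6%. BOP1, DKC1, NCL, NOLC1 and RCL1 were opposite (14.3%, against 3.75% of all genes). NCL, nucleolin, went from 4307 to 3861 and from 6037 to 6992. NOLC1, a nucleolar phosphoprotein, fell by 0.18 and rose by 0.47 and was the 1 of the 5 still opposite with the left-out replicate. Of 24 p53 targets, 17 rose and 1 fell in HCC1500 against 10 and 5 in MDA-MB-175, and the difference was below 0 in 14 and above 0 in 1 (median -0.49). MDM2, the ubiquitin ligase that degrades p53, was opposite, falling by 0.21 and rising by 0.46, but not with the left-out replicate kept.

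Most proliferation genes fell in both lines. Of 30 mitosis genes, 29 fell in MDA-MB-175 and 30 in HCC1500, and all 30 had a difference above 0. Their median change was -0.50 in MDA-MB-175 and -1.63 in HCC1500. Of all genes, 14.7% fell in MDA-MB-175 and 31% in HCC1500, and 22.6% had a difference above 0. Of 40 G1/S and replication genes, 33 fell in MDA-MB-175 and 39 in HCC1500, and 38 were called for the difference, all above 0, with medians of -0.30 and -0.91. Of 35 homologous recombination and Fanconi genes, 20 fell in MDA-MB-175, and 28 fell and 2 rose in HCC1500. RBBP8, which starts resection of DNA ends, was the 1 opposite gene (2.86%, against 3.75% of all genes). In MDA-MB-175 it went from 99.95 to 80.4, and in HCC1500 from 782 to 1206 (difference -0.94, adjusted p = 1.1e-07), with 1189 in the left-out replicate.

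The share of opposite genes varied in the remaining lists, against 3.75% of all genes. Mesenchymal genes CD44, ITGA5 and MMP14 were higher in MDA-MB-175 and lower in HCC1500 (10.3% of 29), with MMP14 at 1.22 and 2.75 in MDA-MB-175, near the worth of 3 reads. Of 79 ribosomal protein genes 1 was opposite (1.27%), and 25 had a difference below 0 against 4 above. These made 36.7%, near the 34.8% of all genes. With the left-out replicate kept 0 of the 79 were called for the difference, against 14.8% of all genes in that fit. Of 13 mitochondrial transcripts 2 were opposite (15.4%) and of 31 autophagy genes 4 (12.9%), all 6 of which lost the call with the left-out replicate kept. Of 63 nuclear oxidative phosphorylation genes 2 were opposite (3.17%), of 37 lysosomal genes 3, of 26 junction genes 2, of 15 MHC class I genes 1, of 24 ER chaperone genes 1, of 14 polyamine genes 1, of 15 ERBB genes 1 and of 21 ciliary genes 1. The 7 arrestin and MondoA/ChREBP genes and the 7 metallothionein and zinc transport genes tested were not among the 672. The lists hold genes in common (CA12 and SLC2A1 are counted more than once), so the counts do not add.

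**Figure D4:**
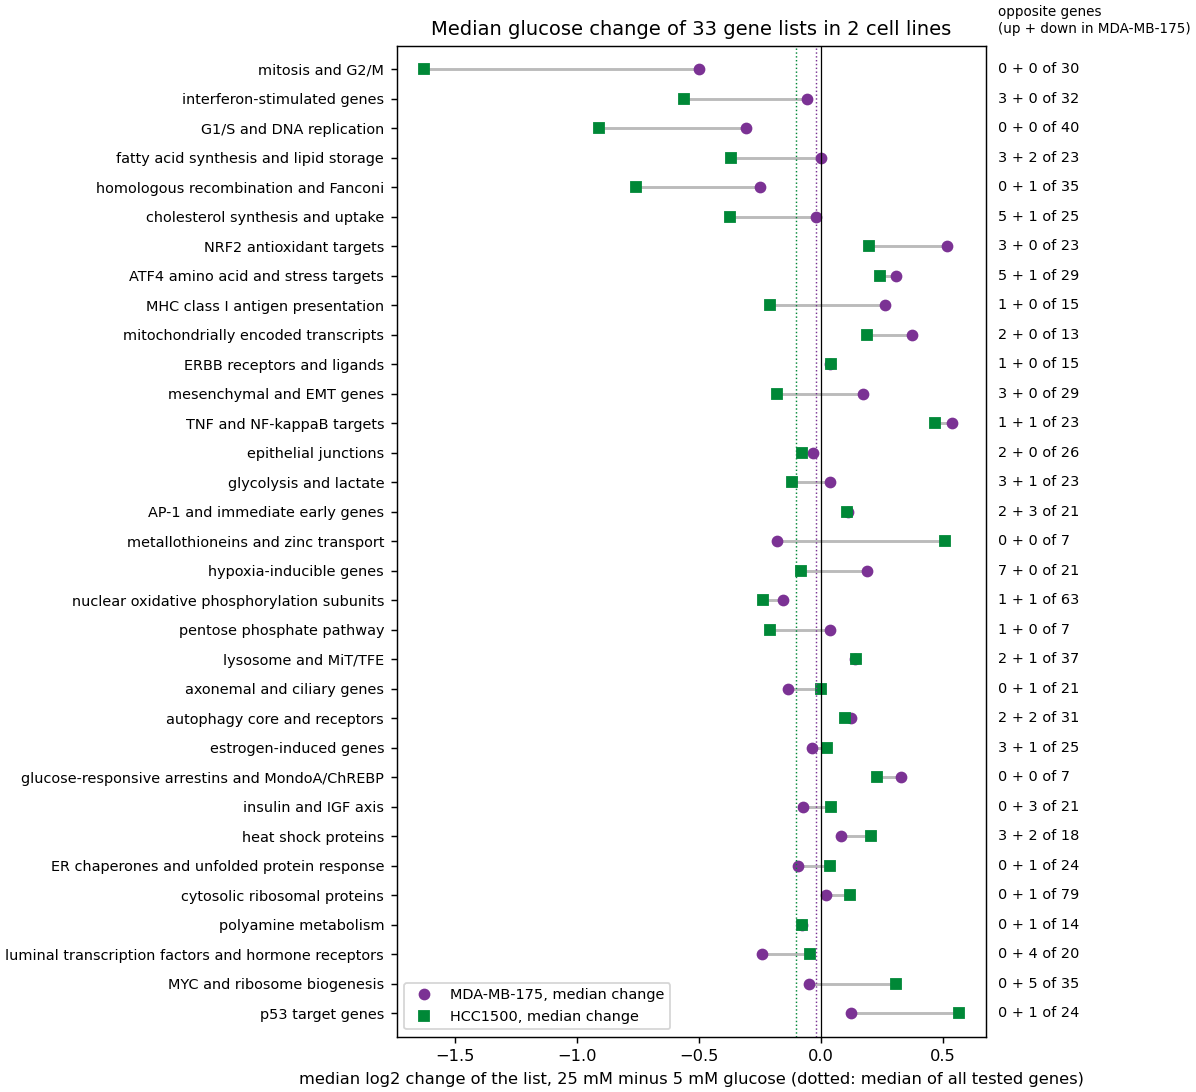
Median log2 change over each gene list in MDA-MB-175 and in HCC1500. Mitosis genes lie at -0.50 and -1.63 and interferon-stimulated genes at -0.06 and -0.56, while p53 targets lie at 0.12 and 0.57.

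Markers of other cell types were low. Luminal markers summed to 30800 to 64600 per sample, fibroblast markers to 115 to 295, and leukocyte markers to 2.15 to 23.7. Basal markers summed to 53.6 to 89 in MDA-MB-175 and at most 1.49 in HCC1500, with 2 of 4 listed genes found in the table. Endothelial markers summed to 75.3 to 95.3 and at most 1.53. In HCC1500 the luminal sum was lower at high glucose (30800 to 30900, against 32500 to 34200) and the leukocyte sum higher (11.2 to 19.4, against 2.15 to 5.08). Their part in the results was not tested.

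The largest differences of all were not opposite. PSG9, PSG5 and PSG4, pregnancy-specific glycoproteins of the CEACAM family on chromosome 19, rose in both lines and far more in MDA-MB-175. PSG9 was at 0 in all 4 low glucose samples of MDA-MB-175 and at 124, 108, 105 and 107 in high glucose, at least 55.2-fold higher when 3 reads in a library stand for 0. In HCC1500 it rose from a range of 3.45 to 4.76 to one of 9.44 to 14.8. PSG4 was at least 28.1-fold higher in MDA-MB-175. The PSG genes are near-identical, so reads may be split between them. PFKP, the platelet-type phosphofructokinase of glycolysis, was at 0 in all low glucose samples of HCC1500 and at 18.3, 18.9 and 12.9 in high glucose, at least 13-fold higher, while MDA-MB-175 had 249 to 333 and 331 to 358 (adjusted p = 0.189). RP11-733O18.1, a non-coding RNA, was at 0 in every MDA-MB-175 sample and rose in HCC1500 from 0.76 to 3.01 in low to 44.8 to 48.4 in high glucose. RSC1A1 followed with a difference of -3.43 ± 1.29 (adjusted p = 0.048), but neither line's own change was called and it shares 2197 exon bases with DDI2.

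ZR-75-30 offered a reading that was not used to choose the genes. Of its 15834 genes tested, 7290 changed (46%), 3700 upward (23.4%) and 3590 downward (22.7%). Of 450 genes raised in MDA-MB-175 and lowered in HCC1500, 239 rose in ZR-75-30 (53.1%), 56 fell (12.4%) and 155 were not called. Of 206 genes lowered in MDA-MB-175 and raised in HCC1500, 108 fell (52.4%) and 21 rose (10.2%). Thus 347 of 656 moved as in MDA-MB-175 and 77 as in HCC1500. The median ZR-75-30 change was 0.21 for the genes raised in MDA-MB-175 and -0.18 for those lowered. In the 13 tested genes with changes of at least 0.5 that fell in MDA-MB-175, 2 fell and 1 rose.

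Several named genes followed MDA-MB-175 in ZR-75-30. NDRG1 rose from 1054 to 2660 (log2 change 1.33), TIMP3 by 1.0, OAS1 by 0.98 and CEACAM1 by 0.49, while FOS fell by 1.74 and EGR1 by 1.21. Others followed HCC1500, among them SCD, which fell by 0.42, PHGDH, which fell by 1.28, and IGFBP4, which rose by 0.54. NELL2 rose by 1.97 as in HCC1500. GLRX at 389.5 and 381 was not called (adjusted p = 0.737).

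**Figure D5:**
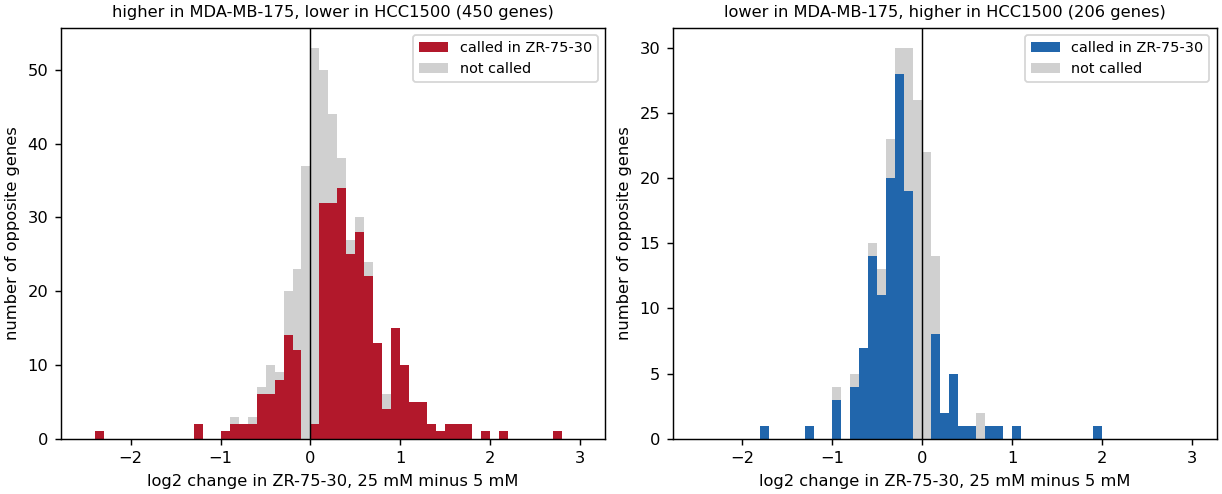
Log2 change in ZR-75-30 of the opposite-direction genes, split by their direction in MDA-MB-175 (y axis, number of genes, coloured where called in ZR-75-30). The median is 0.21 for the genes raised and -0.18 for the genes lowered in MDA-MB-175.

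The opposite genes were mostly well expressed protein-coding genes. Of the 457, 93.4% were protein-coding, and of the 215, 97.7%, against 81.5% of all genes tested. Their median value was 328 and 490, against 93.9 for all, and precision is better at high values. Median exon length was 5985 and 5872.5 bases, against 4779. Median GC content was 0.515 in the genes raised in MDA-MB-175 and 0.458 in those lowered, against 0.492, and the Spearman correlation across 13252 genes of the difference with GC was 0.22, which is across genes that are not independent replicates. At low glucose, 51.4% of the 457 and 58.1% of the 215 were higher in MDA-MB-175 than in HCC1500, against 48.2% of all genes.

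Promoter motifs gave shares near those of all genes. RefSeq promoters were matched for 327 of the 457 and 145 of the 215 symbols, and the 250 bases before the start were searched on both strands for 6 motifs. The E-box CACGTG was in 7.95% and 10.3%, against 8.71% of promoters of genes tested. The core GAAANNGAA was in 5.2% and 6.21%, against 5.41%, and the AP-1 site TGANTCA in 4.89% and 4.14%, against 4.26%. The CArG box was in 1.83% and 1.38%, against 1.04%, the sterol regulatory element TCACNCCAC in 1.53% and 0%, against 0.857%, and the cyclic AMP response element TGACGTCA in 1.53% and 4.14%, against 2.68%. Of all 27305 promoters, 6.49% held the E-box, 6.6% the AP-1 site, 1.14% a CArG box, 0.875% the sterol element and 1.77% the cyclic AMP element. None of the matches printed above overlapped a match of another of these motifs.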

How the data were processed

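RNA-Seq values of 24 samples (6 groups of 4) were read from 1 table of 18889 Ensembl gene IDs. The deposited values are a signal in which the authors divided whole reads by 1 factor for each sample. Reads came out whole (tolerance 0.05) in 100.00% of values in every sample, and the factor's origin is not given in the sources used here. The labels name hg38 and edgeR with no role, while the study's methods name hg19 for other libraries. The plan had assumed counts per fixed total (CPM), and its log2 test was kept. The methods name a stranded kit, TopHat and CPM from edgeR with TMM factors for libraries of tumor RNA. The strandedness, aligner and counter of these cell line libraries are not given in the sources used here. No sample column was left without a sample.

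The fit took genes that reached 0.5 in 4 or more of the 15 fitted samples and used limma 3.58.1 (R 4.3.3) with log2(value + 1), 4 group means and an intensity trend, so changes of low genes are understated. Values after ± are SE for log2 changes and SD for levels. All adjusted p-values are Benjamini-Hochberg values from limma unless another tool is named. Recovered reads were also tested with edgeR 4.0.16 and DESeq2 1.42.0. The scripts were tested on simulated data.

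Members and lists were chosen with earlier results of these data known. Named genes were the 12 opposite genes per direction with the largest smaller change among those with a group mean of at least 10 in each line and no overlap, the 3 largest differences each way, list members opposite by at least 0.5 in each line without overlap, and TXNIP and ARRDC4. Other list members were named because they were opposite, after their values were seen. Gene positions are GRCh37 from GENCODE 44 lifted to that build, which matched 18183 IDs (96.3%) and 142 by symbol. Promoters are from RefSeq GRCh38.p14. Same-numbered replicates had a mean correlation of 0.05 in MDA-MB-175 (0.012 to 0.119), against -0.02 for differently numbered ones (-0.14 to 0.076). In HCC1500 both means were 0. The numbers were not taken as pairs, and a fit with a replicate block is given below. Some opposite genes are not reported here by name.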

Additional observations from a re-analysis of the deposited data

Results flagged for a closer look

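A difference between the responses of the 2 lines that passed its own test was seen in the following named genes, each given as the change in MDA-MB-175 minus that in HCC1500 on the log2 scale. Opposite genes with a difference above 0 were NDRG1 (2.95), GLRX (2.53), OAS1 (2.24), RASA4B (2.02), MGLL (2.02), CEACAM1 (1.92), SLC16A5 (1.86), MARVELD1 (1.84), TIMP3 (1.81), C10orf10 (1.81), RNF224 (1.80), KIF3C (1.69) and TNFAIP2 (1.34). Opposite genes with a difference below 0 were FOS (-2.29), IGFBP3 (-1.86), ATP2A3 (-1.57), RGS16 (-1.49), EGR1 (-1.43), PBX3 (-1.31), ABCA11P (-1.25), OSR2 (-1.21), FOXJ1 (-1.16), CA8 (-1.13), NELL2 (-1.11) and HIPK2 (-1.0). Of genes that were not opposite, PSG9 (5.59), PSG5 (5.21), PSG4 (4.93), TXNIP (-0.60), RP11-733O18.1 (-4.36), PFKP (-3.90) and RSC1A1 (-3.43) differed.

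Each named gene was checked in its 3 groups of 4 fitted samples, both of MDA-MB-175 and low glucose of HCC1500. In 8 of these 99 groups 1 sample lay far from the other 3 by Dixon's criterion, and chance puts about 1 in 20 groups (5%) there. All 8 were MDA-MB-175 samples. At high glucose they were ARRDC4 in replicate 3 (141), ATP2A3 in replicate 1 (775), NELL2 in replicate 2 (23.9), PSG9 in replicate 1 (124), PSG4 in replicate 2 (72.7) and RSC1A1 in replicate 2 (6.25). At low glucose they were OAS1 in replicate 2 (213) and TIMP3 in replicate 1 (1580).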

How the results depend on the processing

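Of 35 alternatives, 31 kept the count of opposite genes within 1.5 times of 672, and leaving out 1 sample at a time gave 581 to 697. The count was 158 with HCC1500 high glucose replicate 3 kept, 350 at an adjusted p under 0.01, 1849 under 0.3 and 6 with changes of at least 1. For changes of at least 0.5 in each line, it was 44, 50, 218 and 6 under the same settings, 49 with a pseudocount of 5, 37 after rescaling to 1000000 per sample and 70 to 85 without 1 sample, against 83. The response differed in 2659 genes with replicate 3 kept, 10175 at an adjusted p under 0.3, 1178 with a difference of at least 1, and 5670 to 6300 without 1 sample, against 6235. MDA-MB-175 changes numbered 1614 with replicate 3 kept, 3174 under 0.01, 8957 under 0.3, 397 at a size of at least 1 and 4231 to 5247 without 1 sample. HCC1500 changes numbered 5210 with replicate 3 kept, 1183 at a size of at least 1 and 7826 to 8919 without 1 sample.

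Scaling moved the split of directions. Of opposite genes, 365 rose and 261 fell in MDA-MB-175 with median-of-ratios factors, 424 and 316 when each sample was set to 1000000, 390 and 285 when set to the mean total, 345 and 540 without the length and GC trend, and 330 and 259 with DESeq2, against 457 and 215. edgeR's quasi-likelihood test gave 391 and 232. Called differences lay above 0 in 65.1% as deposited, 51.1% with median-of-ratios, 44.4% without the trend, 53.4% with edgeR and 49.3% with DESeq2, which left 2435 adjusted p-values undefined. The replicate block gave 585 opposite genes (541 shared) and 5647 differences. Same-numbered samples correlated no more than others in HCC1500, and slightly more in MDA-MB-175 (means of 0.05 and -0.02).

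The ARRDC4 difference, never called, changed sign to -0.055 with median-of-ratios, -0.007 with the mean total, -0.039 without the trend, -0.004 with sample weights, -0.07 with edgeR, -0.083 with DESeq2, -0.036 without HCC1500 low glucose replicate 4 and -0.074 without HCC1500 high glucose replicate 1, and ran from -0.074 to 0.106 over the fits without 1 sample. For the difference in named genes, 1120 values kept its direction and call. The call of the difference was lost in 24 (RSC1A1 in 22, HIPK2 with replicate 3 kept, RP11-733O18.1 with edgeR), and 8 were those of ARRDC4. The cause was not tested. The opposite call was lost more often, and was kept by RNF224 in 22 of 34, FOXJ1 in 27 of 35 and ABCA11P in 28 of 35. GLRX, C10orf10, RGS16, OSR2 and HIPK2 also lost it with replicate 3 kept. NDRG1 kept it in all 35, and the other named opposite genes lost it at a limit of 1 log2 unit. Precision is lowest for genes near the worth of 3 reads.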

Other observations

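Other genes with changes of at least 0.5 in opposite directions, chosen after their values were seen, included several of innate immunity outside the lists. SP100, a nuclear body protein, was at 74.0 and then 117 in MDA-MB-175 and at 68.4 and then 47.0 in HCC1500 (low, then high glucose). TMEM173, which encodes the cyclic dinucleotide receptor STING, went from 52.97 to 91.2 in MDA-MB-175, and HCC1500 went from 45.5 to 31.1. GBP3, a guanylate-binding GTPase, went from 189 to 277 and from 46.4 to 28.6, and UBE2L6, the conjugating enzyme for ISG15, went from 42.5 to 68.8 and from 372 to 235. In ZR-75-30 all 4 rose, by 0.89, 1.07, 0.21 and 0.67 on the log2 scale. The left-out HCC1500 replicate read 57.9 for SP100 and 31.2 for GBP3, on the side of the other high glucose samples, but 77.2 for TMEM173 and 503.5 for UBE2L6, above the low glucose means.

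HPGD, which degrades prostaglandins, rose in MDA-MB-175 (103 to 227) while HCC1500 went from 285 to 176 (difference 1.83, adjusted p = 1.9e-11), and remained opposite with the left-out replicate kept. ADORA1, the adenosine A1 receptor, had the largest rise in MDA-MB-175 of all 672 genes, from 66.3 to 322, with 18.0 and 11.0 in HCC1500, and was not called opposite with that replicate.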
